A study of Mus musculus with 41 samples.

Results

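Genes of the MHC class II pathway were described in RNA from 41 mouse mammary tumors. The genes were H2-Aa, H2-Ab1, H2-Eb1, Cd74, H2-DMa, H2-DMb1 and Ciita, 7 of the 47480 gene symbols in the deposited table. They were chosen by name, and all 7 were found. The 41 tumors, 1 library each, were 28 Plk2-/-; p53-/- tumors and 13 p53-/- tumors, all in the Balb/c strain and all labelled as untreated mammary tumor, grown orthotopically in syngeneic hosts. Wild-type Balb/c recipients of transplanted double knockout epithelium gave rise to the Plk2-/-; p53-/- tumors. The study assigned subtypes by clustering expression profiles, and 4 tumors were claudin-low, T11 among the p53-/- tumors and the Plk2-/-; p53-/- tumors numbered PLK2null-732, PLK2null-733 and PLK2null-743. Since the subtype came from the expression of these same tumors, no difference by subtype is independent evidence of its direction.

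MHC class II molecules show peptides from ingested proteins to CD4+ T cells. Each is a pair of an alpha and a beta chain, I-A from H2-Aa and H2-Ab1, and I-E from an alpha chain gene and H2-Eb1. Cd74, the invariant chain, holds the groove in the endoplasmic reticulum and guides the pair to the endosome, where H2-DM, a pair of H2-DMa and H2-DMb1, helps exchange the Cd74 remnant for a peptide. Dendritic cells, B cells and activated macrophages carry most class II, and interferon gamma can induce it in epithelial and endothelial cells through Ciita, the coactivator that the class II promoters depend on. Ciita binds no DNA itself. It joins a complex of RFX, CREB and NF-Y factors that sits on the X and Y boxes of these promoters.

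The values are gene estimates scaled so that the upper quartile of nonzero genes was 1000 in every tumor. Implied depth was 31910235 to 53244746 fragments in the Plk2-/-; p53-/- tumors and 29409598 to 70868089 in the p53-/- tumors, and 1 read was worth 0.388 to 0.817 in these units. Plk2 was at 36.6 to 553 (median, 284) in the Plk2-/-; p53-/- tumors and at 186 to 8028 (median, 3402) in the p53-/- tumors. The library labelled p53null-7435, at 186, lay inside the range of the other genotype. All 13 p53-/- titles carry a series name that no Plk2-/-; p53-/- title carries, so library batch and genotype cannot be told apart in any comparison of genotypes. Nothing in the labels says which tumors are transplants of the same line, and p-values therefore measure the spread between these samples.

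The H2 genes lie together on chromosome 17 of GRCm38 (mm10) in the GENCODE vM21 annotation. H2-Ab1 spans 34257689 to 34269419 on the plus strand, H2-Aa 34282744 to 34287823 on the minus strand and H2-Eb1 34305867 to 34316674 on the plus strand. H2-DMa spans 34119541 to 34139101 and H2-DMb1 34153072 to 34160230, both on the plus strand. Ciita is on chromosome 16, from 10480059 to 10528418 on the plus strand. The mm10 genome is that of C57BL/6J, whose class II haplotype differs in sequence from that of Balb/c and whose I-E alpha gene is a pseudogene, listed as H2-Ea-ps. Reads of a Balb/c tumor were thus assigned to transcripts of another haplotype, and the part of this in the levels and ratios was not tested. Per the paper, the Plk2-/- line was backcrossed to Balb/c for several generations before the p53-/- cross. Any donor sequence left at the H2 genes would go with genotype and cannot be told apart from it here.

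The X and Y boxes can be read in the RefSeq promoter table for GRCm38.p6, which had entries for 4 of the 7 genes. The stretches for H2-Aa and H2-Eb1 are shown because these genes encode the chains whose ratio is described with the results. Each is the 130 bases before the start of the gene, at chr17:34287824-34287953 on the minus strand for H2-Aa and chr17:34305737-34305866 on the plus strand for H2-Eb1. Capitals mark the Y box core ATTGG and the X box core AACNGAT on the strand of the gene, searched on both strands of the 250 bases before the start.
H2-Aa: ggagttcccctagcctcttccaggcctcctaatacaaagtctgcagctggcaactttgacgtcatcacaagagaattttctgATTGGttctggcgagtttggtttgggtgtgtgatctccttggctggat
H2-Eb1: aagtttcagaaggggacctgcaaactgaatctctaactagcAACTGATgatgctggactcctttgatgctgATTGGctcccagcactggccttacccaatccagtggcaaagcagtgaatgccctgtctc
H2-Eb1 held an X core from base -89 and a Y core from base -59 before the start, with 23 bases between them. H2-DMb1 held the same order at -92 and -61, with 24 bases between, but GENCODE starts this gene farther upstream, so both cores lie inside its annotated span. H2-Aa held the Y core, from -48, and not these letters of the X core, and neither of the 2 entries of H2-DMa, whose RefSeq starts also lie inside the GENCODE span, held the X core. Of 32851 promoters in the table, 5.96% held the X core, 33.8% the Y core and 0.155% an X core followed by a Y core on the same strand within 40 bases. H2-Eb1 also held a Y core on the other strand from -35, left in lower case. The letters are those of the reference strain, and a match is a description of sequence.

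Every one of the 7 genes was measured above the floor of 3 reads in every tumor, and levels spread widely within both genotypes. In bulk RNA, fewer cells of a type and less RNA per cell cannot be told apart. Among the alpha and beta chains, H2-Aa ran from 714 in PLK2null-1988 to 9393 in PLK2null-1971 among the Plk2-/-; p53-/- tumors, with a median of 2829. In the p53-/- tumors it ran from 299 in T11 to 12588 in p53null-5329 (median, 3352). H2-Ab1 was at 796 to 10766 (median, 2670) and at 351 to 15016 (median, 3462) in the same genotypes. The ranges of these I-A chains overlapped almost fully, and T11 and p53null-5329 were the only tumors outside the range of the other genotype. H2-Eb1, the I-E beta chain, was at 470 to 6864 (median, 1663) in the Plk2-/-; p53-/- tumors and at 219 to 11144 (median, 2922) in the p53-/- tumors. Only 5 of 28 Plk2-/-; p53-/- tumors lay above the p53-/- median of H2-Eb1, compared with 12 of 28 for H2-Aa and 11 of 28 for H2-Ab1.

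H2-Ea-ps, the I-E alpha chain, was found in all 41 tumors, from 89.6 in T11 to 3511 in p53null-5329. The reference strain does not express this gene and Balb/c does. Its medians were 971 in the Plk2-/-; p53-/- and 1044 in the p53-/- tumors.

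Cd74, the invariant chain, was at 2012 to 23925 (median, 5505) in the Plk2-/-; p53-/- tumors and at 1071 to 38632 (median, 9622) in the p53-/- tumors. Of the H2-DM genes, H2-DMa had the narrowest spread of the 7, at 304 to 1126 (median, 484) and 360 to 982 (median, 594), a 3.70-fold range over all tumors. H2-DMb1 was at 49.7 to 802 (median, 221) and 32.0 to 692 (median, 233). The GENCODE exons of 2 H2-DMa transcripts overlap exons of Brd2, a chromatin reader gene on the opposite strand, by 182 and 313 bases, and both transcripts are outside the basic set. The library kit is not stated to mark strand, so reads of the overlap cannot be told apart, and Brd2 had a median of 8228. H2-DMb1 has a near-identical neighbour, H2-DMb2, with which it can share reads. H2-DMb2 had a genotype difference of -0.02 on the log2 scale (adjusted p = 0.959 in limma).

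Ciita, the coactivator, was at 36.9 in PLK2null-7747 to 735 in PLK2null-1987 among the Plk2-/-; p53-/- tumors (median, 193). In the p53-/- tumors it was at 11.7 in T11 to 391 in p53null-10151 (median, 121). Its highest 4 values in all tumors were in Plk2-/-; p53-/- tumors, and 18 of 28 lay above the p53-/- median. The end of Ciita overlaps exons of Dexi on the opposite strand by 90 to 329 bases in 7 transcripts. Dexi was at 262 to 1002 in the 41 tumors and did not follow Ciita (Pearson r = 0.00466 on log2 values, n = 41, a description). Dexi was called lower in the Plk2-/-; p53-/- tumors (-0.48 on the log2 scale; adjusted p = 0.0054 in limma). Reads of this overlap cannot be told apart either, and their part in the Ciita values was not tested.

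Levels can be set against each other between genes only per length. Divided by the longest basic transcript in kilobases, medians over all 41 tumors were 5240 for Cd74, 2785 for H2-Aa, 2363 for H2-Ab1, 1242 for H2-Eb1, 256 for H2-DMa, 166 for H2-DMb1 and 26.5 for Ciita. Per length, Cd74 lay above H2-Aa, H2-Ab1 above H2-Eb1 and H2-DMb1 above Ciita in 41 of 41 tumors, and H2-Eb1 above H2-DMa in 40. H2-Aa lay above H2-Ab1 in only 20 of 41 and H2-DMa above H2-DMb1 in 34, so the order of the I-A chains did not hold from tumor to tumor.

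**Figure D1:**
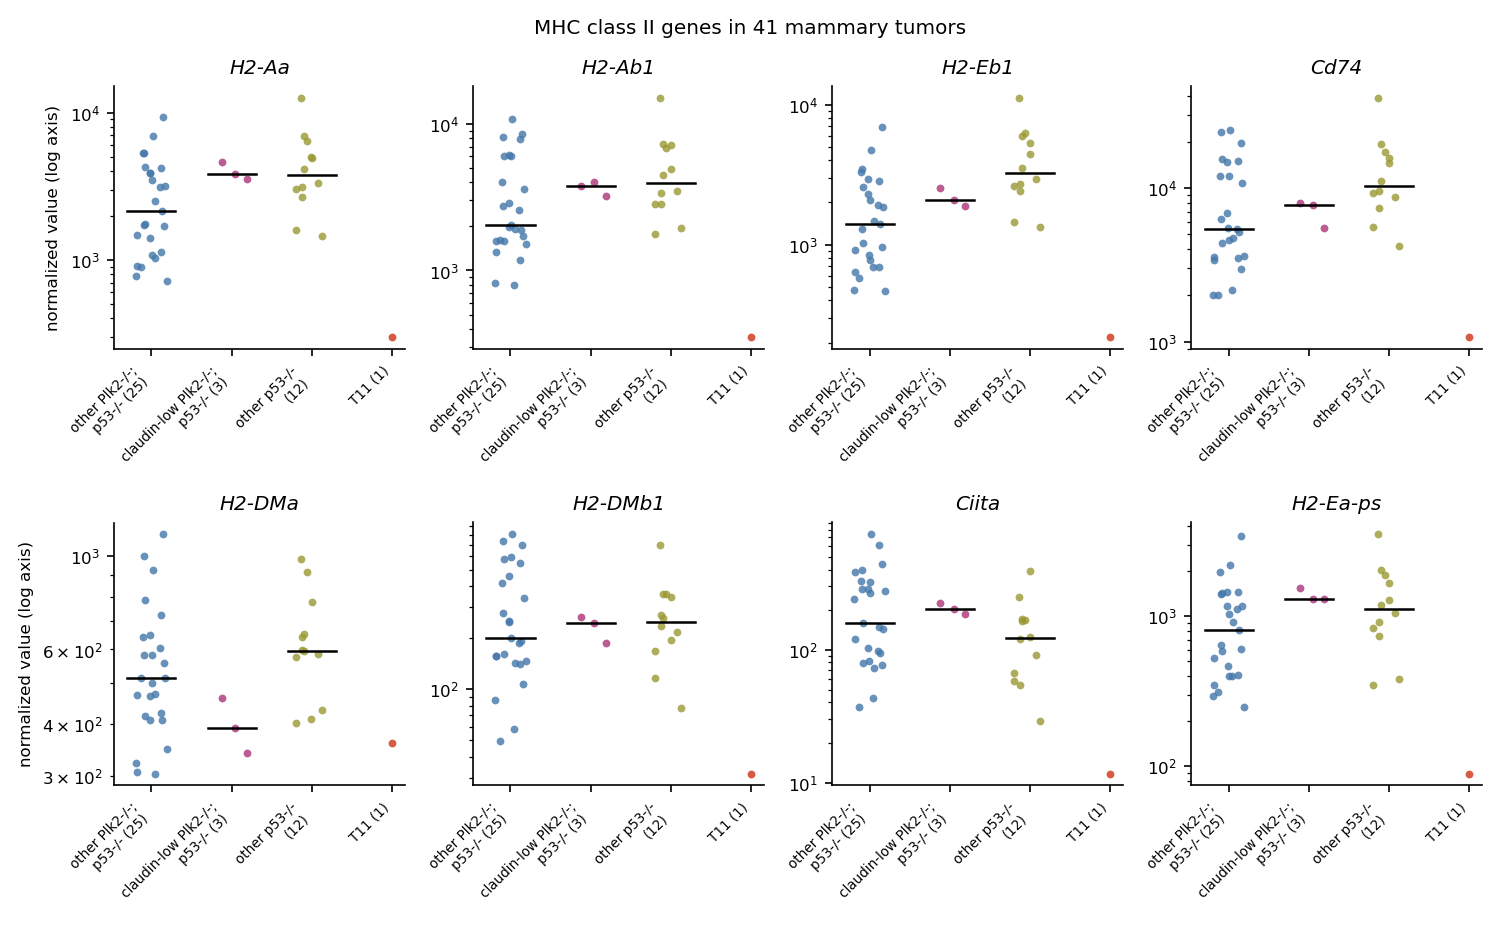
Normalized values (log axis) of the 7 class II genes and of H2-Ea-ps in 25 other Plk2-/-; p53-/- tumors, 3 claudin-low Plk2-/-; p53-/- tumors, 12 other p53-/- tumors and T11. Each point is a tumor and the line is the median; T11 is the lowest point in every panel except H2-DMa, and the other groups overlap.

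The first comparison asked whether class II genes differed with loss of Plk2 on a p53-/- background. None of the 7 genes was called different between 28 Plk2-/-; p53-/- and 13 p53-/- tumors at an adjusted p below 0.05 (limma on log2(value + 1), Benjamini-Hochberg adjustment over 17208 genes). Of all genes tested, 39.5% were called, 24.3% higher and 15.3% lower. At an unadjusted p below 0.05 there were 2 of the 7, H2-Eb1 and Ciita, and they lay in opposite directions. H2-Eb1 had a difference of -0.91 on the log2 scale, Plk2-/-; p53-/- minus p53-/- (standard error, 0.381; 95% interval, -1.68 to -0.14; adjusted p = 0.0534 in limma). Ciita had a difference of 0.90 (standard error, 0.385; 95% interval, 0.12 to 1.68; adjusted p = 0.0592 in limma). The other differences were smaller, at -0.55 for Cd74, -0.41 for H2-Aa, -0.34 for H2-Ab1, -0.19 for H2-DMa and 0.20 for H2-DMb1. For H2-Aa the 95% interval ran from -1.17 to 0.34 and for H2-Ab1 from -1.09 to 0.41, which does not show that these chains were alike.

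The call of H2-Eb1 depended on the tumors and the scaling, and that of Ciita on 1 tumor. The call of H2-Eb1 was made without the 4 claudin-low tumors (-1.28; adjusted p = 0.0033 in limma), after TMM (trimmed mean of M values) rescaling (-1.03; adjusted p = 0.0233) and with quantile normalization (-0.98; adjusted p = 0.0338). It was also made without PLK2null-1981 (-0.96; adjusted p = 0.0439), whose summed B cell markers, at 6607, were the highest of 41, and it was not made without the library labelled p53null-7435 (-0.82; adjusted p = 0.0925). Ciita was called higher without p53null-7435 (0.97; adjusted p = 0.0488) and in none of the other alternatives.

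The partners of Ciita on the X and Y boxes are DNA-binding factors that many cells make. Of the 8 genes of class II transcription, 3 were called higher and none lower, where 24.3% of all genes were called higher and 15.3% lower. They were Rfx5, a DNA-binding subunit of RFX (difference, 0.82; adjusted p = 1.84e-05 in limma), Creb1 (0.54; adjusted p = 5.39e-05) and Nfya, a subunit of NF-Y (0.37; adjusted p = 0.0104). Not called, beside Ciita, were Rfxank (0.40), Nfyc (0.01), Nfyb (-0.08) and Rfxap (-0.27), the last at an unadjusted p below 0.05. Rfx5 was at 642 to 1888 (median, 1168) in the Plk2-/-; p53-/- tumors and at 348 to 1140 (median, 607) in the p53-/- tumors. The call of Nfya was not made after TMM rescaling (0.25; adjusted p = 0.0623). The median difference of all genes moved with the scaling, from 0.10 as deposited to -0.02 after that rescaling, and the shift after quantile normalization was to -0.00488.

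Among the 9 genes through which interferon gamma induces Ciita, 8 were tested and 1, Irf1, a transcription factor that acts on the Ciita gene, was called higher (difference, 0.68; adjusted p = 0.0036 in limma). Irf1 was at 751 to 5792 (median, 2675) in the Plk2-/-; p53-/- tumors and at 896 to 2473 (median, 1393) in the p53-/- tumors. Ifng itself was listed at 0 in 10 of 41 tumors and lay at or under 3 reads in 27, too low to test. Of 9 class I presentation genes, 1 was called, Nlrc5, which does for class I promoters what Ciita does for class II (difference, 1.91; adjusted p = 3.60e-04 in limma). Nlrc5 was at a median of 1134 in the Plk2-/-; p53-/- and 268 in the p53-/- tumors.

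In the list of alpha and beta chains 4 genes were tested and in the list of peptide loading 6, and none was called by limma, with 1 and 0 of them at an unadjusted p below 0.05. Their median differences were -0.38 and -0.11, beside 0.10 for all genes. The endosomal protease and turnover list had 1 of 10 called higher, March1, a ligase that removes class II from the surface (0.74; adjusted p = 0.0170 in limma). The costimulation list had 1 of 5 called higher, Cd274, which encodes PD-L1 (1.79; adjusted p = 1.31e-04). With the 7 tumors numbered from PLK2null-7747 to PLK2null-7764 in place of all 28, Irf1, Nlrc5, March1 and Cd274 were no longer called. March1 was also not called with quantile normalization (adjusted p = 0.0833) or without the 4 claudin-low tumors (adjusted p = 0.0521).

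Markers of cells that can carry class II were compared in the same fit. Dendritic cell genes were called higher in 2 of 8, Zbtb46 (1.16; adjusted p = 0.0167 in limma) and Itgax (0.96; adjusted p = 0.0063). Not called were Clec9a (0.61), Batf3 (0.29), Flt3 (-0.25), Ccr7 (-0.65), Siglech (-0.83) and Cd209a (-1.30), the last at an unadjusted p below 0.05. The list median was 0.02, beside 0.10 for all genes, of which 24.3% were called higher. Macrophage genes were called higher in 2 of 9, Mertk (1.13; adjusted p = 0.0040) and Cd68 (0.96; adjusted p = 0.0102). None of the 7 B cell, 7 T cell, 6 blood endothelial, 5 lymphatic endothelial or 6 fibroblast markers was called by limma, with 1 fibroblast marker at an unadjusted p below 0.05, and of 8 epithelial markers Krt5 (-5.13; adjusted p = 0.0080) and Krt14 (-3.06; adjusted p = 0.0302) were called lower. With those 7 tumors none of these 6 marker calls was made, and Krt14 was not called without p53null-7435 (-2.86; adjusted p = 0.0507). The part of these markers in the class II values was not tested.

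**Figure D2:**
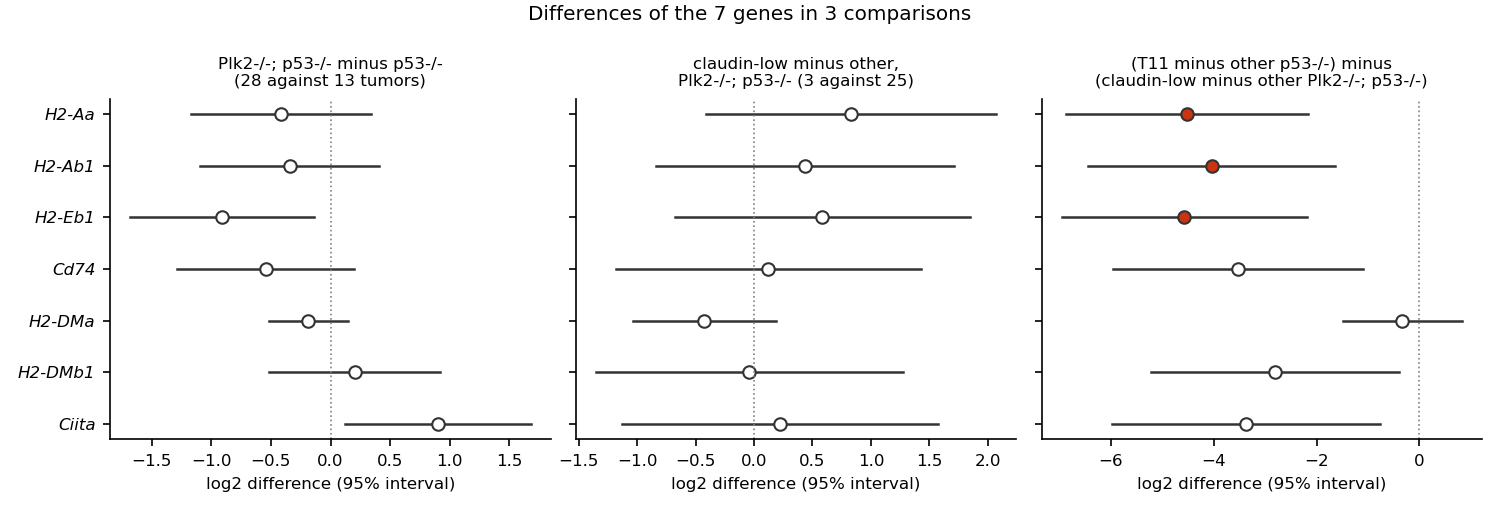
Log2 differences with 95% intervals of the 7 genes in 3 comparisons, with filled points for adjusted p below 0.05. None of the 7 is filled for genotype or for claudin-low against other Plk2-/-; p53-/- tumors, and H2-Aa, H2-Ab1 and H2-Eb1 are filled, between -4.58 and -4.04, in the panel of T11 minus the other p53-/- tumors less claudin-low minus the other Plk2-/-; p53-/- tumors.

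The balance between class II genes within a tumor does not depend on how that tumor was scaled. The ratios were picked once their values had been seen, so they carry no test. The ratio of H2-Eb1 to H2-Aa was at 0.533 to 0.766 (median, 0.620) in the 28 Plk2-/-; p53-/- tumors. In the p53-/- tumors it was at 0.733 in T11 and at 0.8505 to 1.07 in the other 12 (median of 13, 0.885). All 28 Plk2-/-; p53-/- tumors lay below those 12, and 26 of the 28 lay below all 13, since 2 lay above T11. The share of other gene pairs that separate the genotypes in this way was not computed. The part of library batch, or of donor sequence left at the H2 genes after the backcross, in these ratios was not tested. The 3 claudin-low Plk2-/-; p53-/- tumors had the 3 lowest ratios of the 28, at 0.546 in PLK2null-732, 0.533 in PLK2null-733 and 0.549 in PLK2null-743. Against the other I-E chain, the ratio of H2-Eb1 to H2-Ea-ps was at 1.44 to 2.46 in the Plk2-/-; p53-/- tumors and at 2.44 in T11 to 4.11 in the p53-/- tumors. Here 27 of the 28 lay below all 13 p53-/- tumors, and all 28 below the 12 other than T11. The ratio of H2-Ea-ps to H2-Aa, with medians of 0.359 and 0.287, was on the other side, with 21 of the 28 above every p53-/- tumor.

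The I-A pair was not in a fixed ratio either. H2-Ab1 to H2-Aa was at 0.949 to 1.46 in the p53-/- tumors (median, 1.08), and the Plk2-/-; p53-/- tumors lay on both sides of this range, with 11 below it and 10 above it. The ratio was lowest in PLK2null-7763, at 0.732, and highest in PLK2null-1988, at 2.11. Cd74 to H2-Aa behaved likewise, at 2.60 to 3.59 in the p53-/- tumors, with 15 Plk2-/-; p53-/- tumors below and 9 above. The highest and lowest ratios of H2-Ab1 to H2-Aa were 1.54-fold apart in the 13 p53-/- tumors and 2.89-fold apart in the 28 Plk2-/-; p53-/- tumors. This was not so for the I-E pair, where the ratios of H2-Eb1 to H2-Ea-ps were 1.68-fold and 1.70-fold apart, or for H2-Eb1 to H2-Aa, at 1.46-fold and 1.44-fold. These spreads were not tested.

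Ciita stood high against H2-Aa in a subset of Plk2-/-; p53-/- tumors. The ratio of Ciita to H2-Aa was at 0.0197 to 0.0797 in the p53-/- tumors (median, 0.0260). It was at 0.0262 to 0.422 in the Plk2-/-; p53-/- tumors (median, 0.0556), and 10 of the 28 lay above every p53-/- tumor. The highest were PLK2null-7750, with Ciita at 381 and H2-Aa at 903, PLK2null-1988, at 275 and 714, and PLK2null-1973, at 241 and 777. These tumors held Ciita above the p53-/- median of 121 and H2-Aa below the lowest p53-/- value other than T11, which was 1443. The labels do not say which tumors are transplants of the same line, so counts of tumors by these ratios need not be counts of independent tumors.

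**Figure D3:**
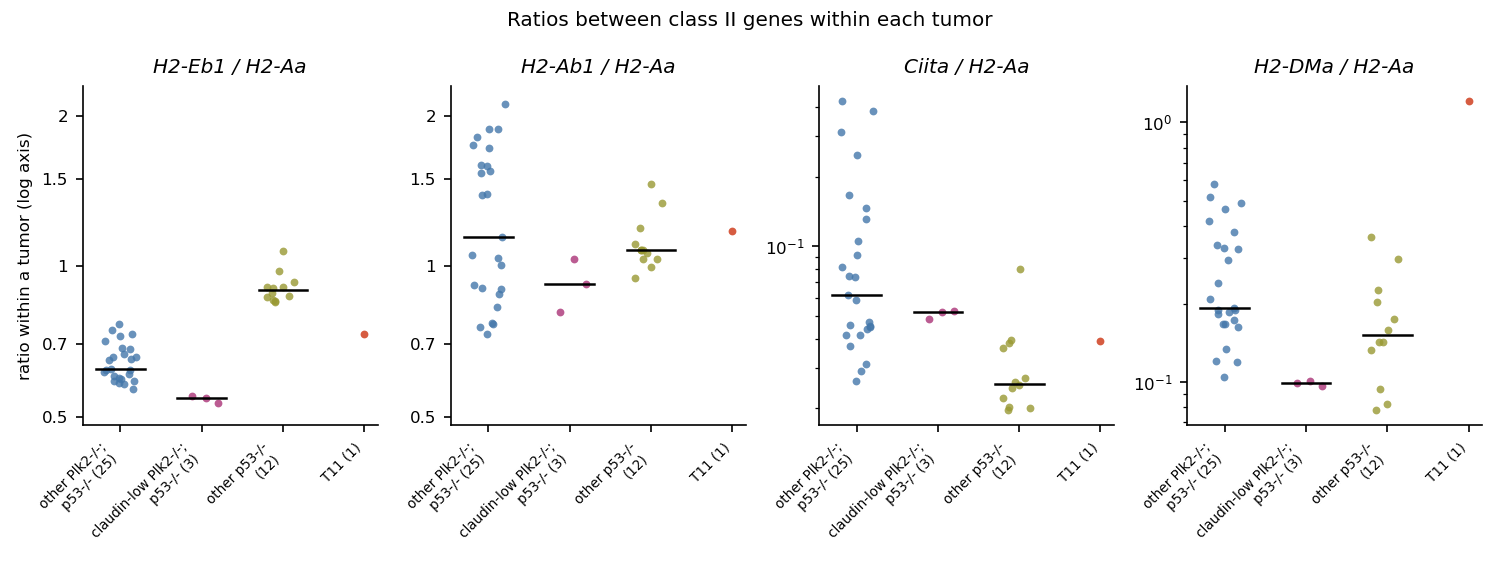
Ratios of class II genes within each tumor (log axis) in the 4 groups, each point a tumor and each line a median. For H2-Eb1 to H2-Aa the Plk2-/-; p53-/- tumors lie at or below 0.766 and the 12 other p53-/- tumors at or above 0.8505, Ciita to H2-Aa reaches 0.422 in Plk2-/-; p53-/- tumors, and H2-DMa to H2-Aa is highest in T11, at 1.204.

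Class II genes followed one another from tumor to tumor. In the 13 p53-/- tumors, H2-Ab1 and H2-Aa correlated at Pearson r = 0.992 on log2 values (Spearman rho = 0.973), and at r = 0.969 without T11 and p53null-5329, the pair farthest from the median. H2-Ab1 and Cd74 were at r = 0.988 and H2-Ab1 and H2-DMa at r = 0.761. In the 25 other Plk2-/-; p53-/- tumors H2-Ab1 correlated with Cd74 at r = 0.967 (rho = 0.945), with H2-DMb1 at r = 0.933 and with H2-Aa at r = 0.892. All values of a tumor come from the same library, and these correlations are descriptions.

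Ciita and its targets were then set against each other. In the 13 p53-/- tumors Ciita correlated with H2-Aa at r = 0.907 (rho = 0.923), with Cd74 at r = 0.908 and with H2-DMb1 at r = 0.918, and r for H2-Aa was 0.765 without T11 and p53null-5317. In the 25 other Plk2-/-; p53-/- tumors the same values were 0.446 for H2-Aa (rho = 0.482), 0.662 for Cd74 and 0.738 for H2-DMb1. Without PLK2null-1987 and PLK2null-7747, the tumors with the highest and lowest Ciita, r for H2-Aa was 0.3001. The difference between the genotypes in these correlations was not tested.

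**Figure D4:**
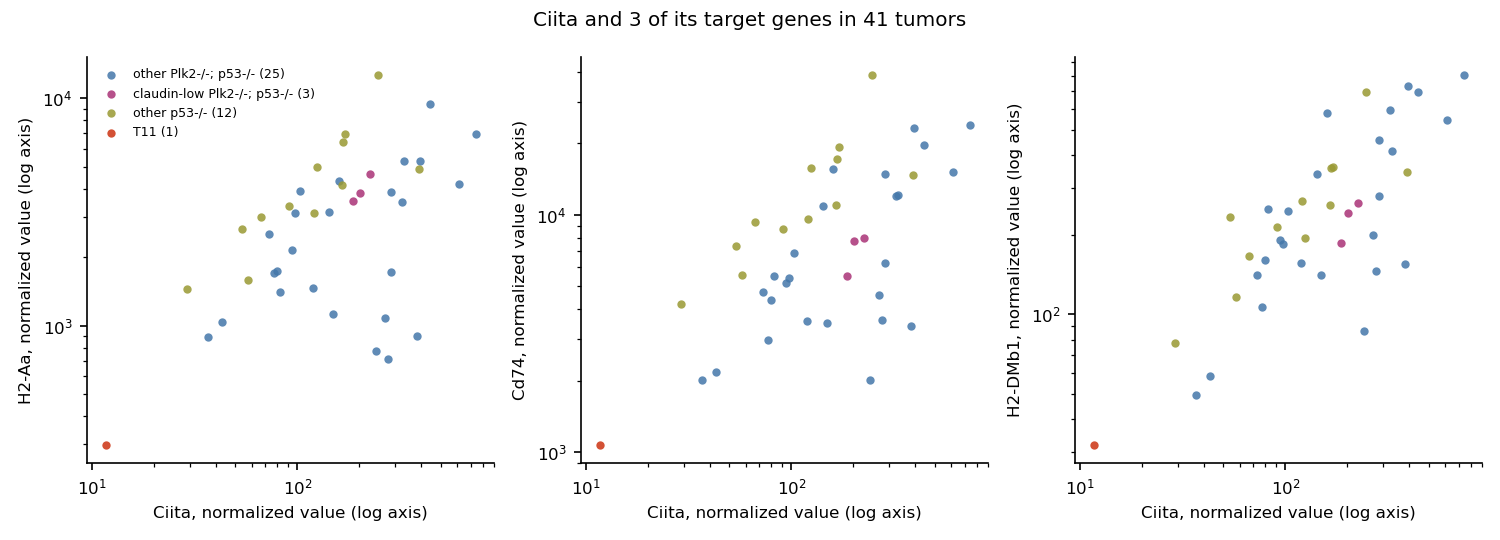
Ciita against H2-Aa, Cd74 and H2-DMb1 in 41 tumors (normalized values, log axes), each point a tumor. T11 has the lowest Ciita, at 11.7, and the Plk2-/-; p53-/- tumors PLK2null-7750, PLK2null-1988 and PLK2null-1973 have Ciita between 241 and 381 and H2-Aa between 714 and 903.

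The second comparison asked whether class II genes differed between claudin-low and other Plk2-/-; p53-/- tumors. None of the 7 was called in 3 against 25 tumors (limma, Benjamini-Hochberg adjustment over 17153 genes), and 0 of the 7 had an unadjusted p below 0.05. Of all genes tested, 37.3% were called, 20.2% higher and 17.1% lower. The claudin-low tumors sat inside the range of the others for each of the 7, while for 19.8% of 17208 genes all 3 lay above or all 3 below the other 25. H2-Aa was at 3844 in PLK2null-732, 3523 in PLK2null-733 and 4638 in PLK2null-743, and at 714 to 9393 (median, 2152.6) in the other 25. H2-Ab1 was at 3983, 3245 and 3752 in the same tumors, against 796 to 10766 (median, 2030). H2-Eb1 was at 2097, 1879 and 2545, against 470 to 6864 (median, 1406). All 3 lay above the median of the others for each of these chains. Cd74 was at 7752, 5508 and 7967, Ciita at 201, 186 and 225, H2-DMb1 at 242, 186 and 264 and H2-DMa at 389.5, 340.3 and 459.7. H2-DMa was the only gene for which all 3 claudin-low tumors lay below the median of the others, 512.

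The differences were 0.83 for H2-Aa (95% interval, -0.41 to 2.07; adjusted p = 0.298 in limma), 0.58 for H2-Eb1, 0.43 for H2-Ab1, 0.22 for Ciita, 0.12 for Cd74, -0.04 for H2-DMb1 and -0.42 for H2-DMa. With 3 tumors the intervals of the chains allow differences of more than 1 on the log2 scale, and the comparison does not show that the groups are alike. When T11 was added to the claudin-low side, with genotype as a covariate, H2-Aa turned to -0.33, H2-Ab1 to -0.60, H2-Eb1 to -0.59, Cd74 to -0.78 and Ciita to -0.64.

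Markers of cell types were compared in the same fit. Blood endothelial markers were called higher in 6 of 6, lymphatic endothelial markers in 5 of 5, and epithelial markers lower in 7 of 8. The 6 blood endothelial markers summed to 165585 to 186496 in the 3 claudin-low tumors, against 2572 to 78025 in the others, the highest being PLK2null-7763. The 8 epithelial markers summed to 53.6 to 404, against 19888 to 119280, so epithelial markers were nearly absent from these 3 tumors labelled as mammary. Fibroblast markers were called lower in 3 of 6, Lum, Dcn and Pdgfra, and these calls held in 10, 10 and 8 of 13 alternatives. B cell markers were called higher in 7 of 7 and T cell markers in 7 of 7, while macrophage markers were called higher in 2 of 9, Mertk (1.64) and Mrc1 (1.24). Dendritic cell markers were called higher in 5 of 8, with Clec9a, a receptor of cross-presenting dendritic cells, at 5.05 (adjusted p = 9.24e-06 in limma), Ccr7 at 3.85 and Zbtb46 at 3.58. Zbtb46 and Ccr7 are also made by endothelial cells and lymphocytes, respectively. The part of these markers in the class II values was not tested.

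Of the genes that work with class II, H2-Ob, a chain of the H2-DM inhibitor H2-O that is made mainly by B cells, was called higher (3.92; adjusted p = 0.0026 in limma), the only 1 of 6 loading genes. Of 5 costimulatory genes 3 were called higher, Cd40 (2.88; adjusted p = 3.19e-05), Cd80 (1.205; adjusted p = 0.0447) and Cd86 (1.06; adjusted p = 0.0333). The calls of Cd80 and Cd86 were lost whenever 1 of the 3 claudin-low tumors was left out, with adjusted p from 0.0740 to 0.186. The call of Cd80 held in 3 of 12 alternatives and that of Cd86 in 6 of 13. Cd4, the coreceptor that binds class II, was at 494, 676 and 770 in the claudin-low tumors and at 25.5 to 685 (median, 98.4) in the others (2.46; adjusted p = 0.0029). PLK2null-1981, at 685, was the only other tumor in the range of the claudin-low tumors. In the proteolysis list 2 of 10 were called lower, Sppl2a, which cleaves the last fragment of Cd74 (-0.57; adjusted p = 0.0170), and March8 (-0.56; adjusted p = 0.0097). Nfya, 1 of 8 transcription genes, was called higher (0.56; adjusted p = 0.0175), and of 8 tested genes that act in Ciita induction, Jak1, a kinase on the interferon gamma receptor (1.17; adjusted p = 2.40e-06), and Ifngr1, a chain of that receptor (0.73; adjusted p = 0.0257), were called higher. Leaving out 1 claudin-low tumor also ended the call of Sppl2a for any of the 3, of Nfya and Ifngr1 for PLK2null-733 or PLK2null-743, of Mrc1 for the same tumors and of March8 for PLK2null-732. Over all 13 alternatives the call of Ifngr1 held in 7 and that of Nfya in 9. Class I presentation genes had 0 of 9 called by limma, and 0 at an unadjusted p below 0.05.

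T11 stood apart. It was the lowest of all 41 tumors for 6 of the 7 genes, and 8.89% of 17208 genes had their lowest value in T11. All 7 were lowest in T11 among the 13 p53-/- tumors, as were 17.1% of genes. Against the lowest of the other 12 p53-/- tumors, T11 was 4.83-fold lower for H2-Aa (299 against 1443), 5.01-fold for H2-Ab1 (351 against 1761), 6.14-fold for H2-Eb1 (219 against 1344) and 3.93-fold for Cd74 (1071 against 4207). H2-DMb1, at 32.0, was 2.43-fold below the next p53-/- tumor and Ciita, at 11.7, 2.49-fold. H2-DMa was the exception. At 359.6 it was the lowest of the 13 p53-/- tumors but the 6th lowest of 41, and the ratio of H2-DMa to H2-Aa, 1.204 in T11, was at most 0.579 in every other tumor. Brd2, which overlaps H2-DMa, was at 8408 in T11, near its median. Over the 41 tumors Brd2 and H2-DMa had a Pearson r of -0.117 on log2 values, a description. Against the mean of the other 12 on the log2 scale, T11 was at -3.69 for H2-Aa, -3.60 for H2-Ab1, -3.99 for H2-Eb1, -3.40 for Cd74, -2.85 for H2-DMb1, -3.15 for Ciita and -0.75 for H2-DMa. T11 is a single tumor and these values have no replicate error.

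The third comparison asked whether T11 departed from the other p53-/- tumors as the claudin-low Plk2-/-; p53-/- tumors departed from theirs. In a fit of 4 groups over the 41 tumors, in which T11 was assumed to vary like the rest, 3 of the 7 genes were called, all with values below 0, where 9.97% of all genes were called, 6.54% lower and 3.43% higher. The value is T11 minus the other p53-/- tumors, less claudin-low minus the other Plk2-/-; p53-/- tumors, and either side can move it. This difference of differences was -4.52 for H2-Aa (standard error, 1.16; adjusted p = 0.0091 in limma), -4.58 for H2-Eb1 (standard error, 1.18; adjusted p = 0.0090) and -4.04 for H2-Ab1 (standard error, 1.19; adjusted p = 0.0233). H2-Ea-ps was called too (-4.40; adjusted p = 0.0100). Cd74 (-3.52; adjusted p = 0.0533), Ciita (-3.38; adjusted p = 0.0884), H2-DMb1 (-2.81; adjusted p = 0.134) and H2-DMa (-0.33; adjusted p = 0.787) were not called. With quantile normalization H2-Ab1 was no longer called (-3.60; adjusted p = 0.0579), and without PLK2null-1981 Cd74 was (-3.60; adjusted p = 0.0404). A difference between genotypes and a difference between single tumors cannot be told apart here.

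In the same difference of differences both ligands of class II on T cells were called lower, Cd4 (-5.60; adjusted p = 0.0023 in limma) and Lag3 (-3.02; adjusted p = 0.0331). Cd4 was at 10.4 in T11, the lowest of 41. T cell markers were called lower in 6 of 7, B cell markers in 4 of 7 and dendritic cell markers in 4 of 8. The 7 T cell markers summed to 59.3 in T11, against 169 to 1348 in the other 12 p53-/- tumors, and the 9 dendritic cell markers to 484, against 510 to 2017. The 7 B cell markers summed to 37.2 in T11, inside the 24.6 to 109 of the other 12 p53-/- tumors, and to 892 to 1196 in the claudin-low Plk2-/-; p53-/- tumors. Of 9 macrophage markers none was called by limma and 0 had an unadjusted p below 0.05. Their sum in T11 was 17621, against 8796 to 33128 in the other 12 p53-/- tumors, and was the 16th from the lowest of 41. Of the class I presentation genes 3 of 9 were called lower, Tap2 (-3.97; adjusted p = 0.0034), Tap1 (-2.94; adjusted p = 0.0331) and Psmb8 (-2.85; adjusted p = 0.0384), which lie beside the class II genes on chromosome 17. The calls of Tap1 and Psmb8 were lost without any 1 of the claudin-low Plk2-/-; p53-/- tumors and with quantile normalization, and that of Lag3 without PLK2null-732 or PLK2null-743 and with either rescaling. Tap1, Tap2 and Psmb8 each had their lowest value of 41 in T11. The epithelial markers of T11 summed to 33791, against 53.6 to 404 in the 3 claudin-low tumors of the other genotype, and blood endothelial markers to 6876, against 165585 to 186496. Within its own genotype T11 was not low in endothelial markers, since the other 12 p53-/- tumors had medians of 4610 for blood and 303 for lymphatic endothelial markers, beside 6876 and 534 in T11. In the difference of differences blood endothelial markers were called lower in 6 of 6, lymphatic endothelial markers in 4 of 5, and 2 of 8 epithelial and 2 of 6 fibroblast markers were called higher. H2-Ob was called lower (-5.54; adjusted p = 0.0361 in limma), as 1 of 6 loading genes, and Ctsl, an endosomal protease, higher (2.91; adjusted p = 0.0273), as 1 of 10 in its list. H2-Ob was not called without PLK2null-733 or PLK2null-743 or with quantile normalization, and Ctsl was not called without PLK2null-733. None of 8 transcription, 8 induction or 5 costimulation genes was called by limma, with 1 in each list at an unadjusted p below 0.05. The part of the markers in the class II values was not tested.

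**Figure D5:**
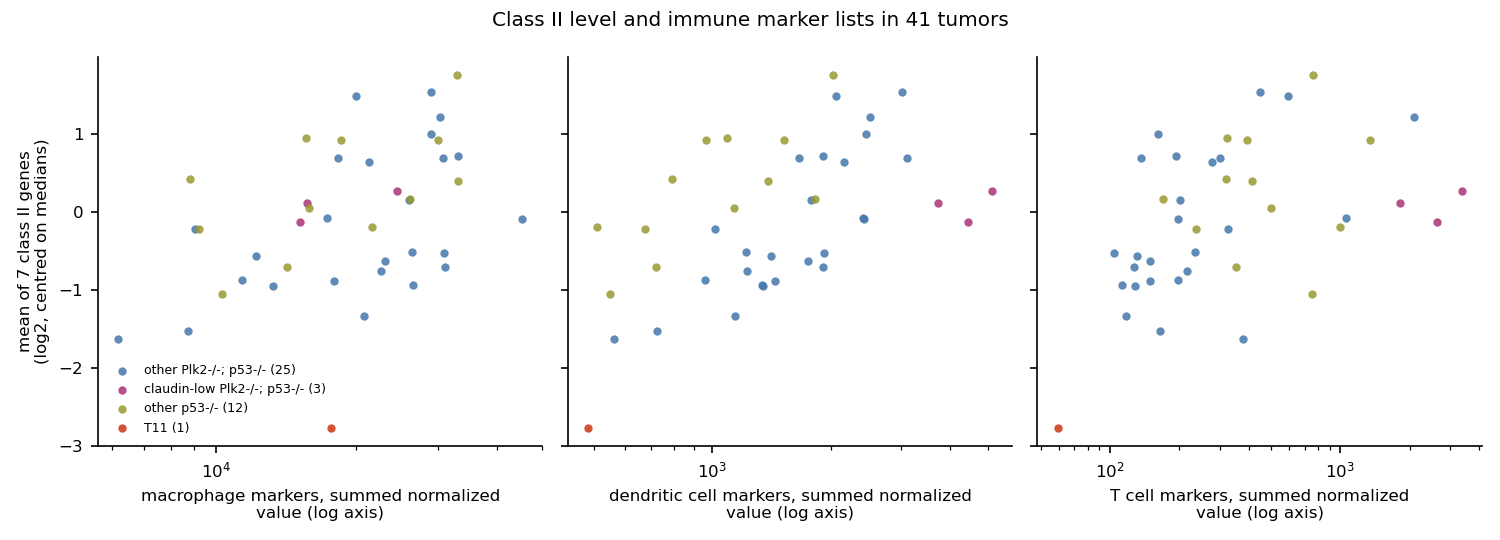
Mean of the 7 class II genes (log2, each gene centred on its median over 41 tumors) against the summed values of macrophage, dendritic cell and T cell markers (log axes), each point a tumor. T11 is lowest for class II, at -2.78, and lowest for dendritic and T cell markers, while its macrophage markers lie among those of the other tumors. Genes at high levels weigh most in a sum, and Itgax had the highest mean log2 value of the dendritic cell markers tested.

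The tumors were ordered by the mean of the 7 genes on the log2 scale, each centred on its median. The lowest were T11 at -2.78, PLK2null-7748 at -1.63, PLK2null-7747 at -1.52 and PLK2null-1973 at -1.33. The highest were p53null-5329 at 1.76, PLK2null-1987 at 1.54, PLK2null-1971 at 1.49 and PLK2null-1981 at 1.22, and the 3 claudin-low Plk2-/-; p53-/- tumors lay in the middle, at 0.12, -0.13 and 0.27. Both genotypes were thus found at either end. In the 25 other Plk2-/-; p53-/- tumors the mean correlated with the summed dendritic cell markers at r = 0.793 (rho = 0.808) and with macrophage markers at r = 0.511 (rho = 0.492). For T cell markers r was 0.505 there and for B cell markers 0.290. Without the 2 tumors farthest from the median of each list, r was 0.736, 0.324, 0.502 and 0.0789 in that order. In the 13 p53-/- tumors r was 0.754 for dendritic cell markers (rho = 0.742) and 0.375 for macrophage markers (rho = 0.407). Without the 2 farthest tumors these were 0.631 and 0.523. For T cell markers r was 0.584 in those 13 and -0.012 without the 2 tumors farthest from the median. The sums are of linear values, so genes at high levels weigh most. Of the dendritic cell markers tested, Itgax had a mean log2 value of 9.85 over the 41 tumors, Zbtb46 7.61 and each of the others 5.82 or less. The part of each marker in these correlations was not tested.

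Genes outside the 7 were ranked by their Pearson correlation with this mean over the 41 tumors, among 17201 genes with a mean of at least 10. The most alike was H2-Ea-ps (r = 0.931), followed by H2-DMb2 (r = 0.922), Slamf8 (r = 0.825), a receptor of macrophages and dendritic cells, and Cxcl9 (r = 0.740), a chemokine induced by interferon gamma that attracts T cells. Others among the 10 most alike were Rnase6 (0.735), Itgae (0.706), Klrk1 (0.692), Cd8b1 (0.691) and Napsa (0.690). Itgae is the integrin alpha chain CD103, Klrk1 the receptor NKG2D and Cd8b1 a chain of the CD8 coreceptor. The 9 named genes had r from 0.620 for Itgae to 0.938 for H2-DMb2 in the 25 other Plk2-/-; p53-/- tumors and from 0.755 for Cxcl9 to 0.981 for H2-Ea-ps in the 13 p53-/- tumors. Without T11 the values over 40 tumors ran from 0.668 for Cd8b1 to 0.926 for H2-DMb2.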

How the data were processed

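RNA was measured in 41 tumors. Per the submitters' processing notes and the paper, STAR 2.7.6a, Salmon 1.4.0, Picard 2.22.4 and SAMtools were used with the mm10 build. The gene annotation is not given in the sources used here. The authors deposited 1 value per gene and tumor, a linear signal from Salmon; in each tumor its nonzero upper quartile is 1000. Genotype came from the labels and subtype from the study, whose text does not name PLK2null-732 or PLK2null-733. In each tumor 77.8 to 80.5% of nonzero values lay within 0.1 read of a whole multiple of the smallest step, too few to recover reads, so no count model was used. No value column was left without a sample.

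Tests were run on log2(value + 1), a scale that understates changes of low genes, with limma 3.58.1 in R 4.3.3, keeping genes whose mean value was 10 or more. Adjusted p-values are Benjamini-Hochberg values over all genes tested, with a threshold of 0.05. Other values were computed in Python 3.11.15 with pandas 2.3.3, and figures drawn with matplotlib 3.10.9. The members and the gene lists were chosen with earlier results of these data known. Named genes were the 7 members, H2-Ea-ps, Cd4, Ifng and Plk2, at most the 3 called genes with the largest difference in each list, and the 10 genes most like the members' mean, of which 1 is not reported here. Brd2, Dexi, H2-DMb2, the genes named as not called beside the called ones, and the ratios were named after their values were seen.

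The fits by genotype and of claudin-low against other Plk2-/-; p53-/- tumors were also run on simulated data. At a log2 change of 2, 79 of 94 changed genes were recovered for genotype and 70 of 96 for claudin-low, with 9 false calls in each. Alternatives changed the pseudocount, filter, limma trend, scaling and tumors. Gene positions came from GENCODE vM21. A floor of 3 reads reflects counting error alone. P-values measure the spread between these tumors.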

Additional observations from a re-analysis of the deposited data

Results flagged for a closer look

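The distance of T11 from the other p53-/- tumors was compared with the distance of the claudin-low Plk2-/-; p53-/- tumors from the rest of their genotype. The difference between these distances passed the threshold for 3 genes, at -4.52 for H2-Aa, -4.04 for H2-Ab1 and -4.58 for H2-Eb1 on the log2 scale (limma, fit of 4 groups). The values behind them were a T11 level of 299, 351 and 219, below all other 40 tumors, and claudin-low Plk2-/-; p53-/- levels above the median of the other Plk2-/-; p53-/- tumors. T11 is 1 tumor, so a difference between genotypes and one between single tumors cannot be told apart. No group had 4 to 10 tumors, and single tumors were not tested for standing apart from a group.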

How the results depend on the processing

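Leaving out each of the 3 claudin-low tumors in turn moved the count of genes called between claudin-low and other Plk2-/-; p53-/- tumors from 6391 to between 4527 and 4629, called none of the 7 class II genes there, and kept the calls of H2-Aa, H2-Ab1 and H2-Eb1 in the difference of differences for T11. In the genotype comparison the share of calls that were higher was 61.4% as deposited (4175 higher and 2627 lower), 50.7% with quantile normalization (3425 and 3325) and 48.3% after TMM rescaling (3325 and 3553). In the T11 comparison the calls were 590 higher and 1125 lower as deposited, 556 and 703 with quantile normalization and 841 and 980 after that rescaling, and the median of all genes moved from -0.19 to 0.07 in both. With the 7 tumors numbered from PLK2null-7747 to PLK2null-7764, 2942 genes were called by genotype instead of 6802, with fewer tumors compared.

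By genotype, 1 of the 7 genes instead of 0 was called in 6 alternatives. It was H2-Eb1 with quantile normalization (-0.98), after TMM rescaling (-1.03), in the fit of 4 groups and without the 4 claudin-low tumors (-1.28 in both), and without PLK2null-1981 (-0.96), and it was Ciita without p53null-7435 (0.97). H2-DMb1 turned from 0.20 to -0.0141 in the fit of 4 groups and without the claudin-low tumors and to -0.29 with those 7 tumors, and Cd4 turned to -0.0248 with those 7. In the claudin-low comparison, Cd74 turned to -0.0741 with quantile normalization. With T11 on the claudin-low side, H2-Aa was at -0.33, H2-Ab1 at -0.60, H2-Eb1 at -0.59, Cd74 at -0.78, Ciita at -0.64 and H2-Ea-ps at -0.32. H2-DMb1 turned to 0.0282 without PLK2null-1981, and leaving out claudin-low tumors moved it between -0.14 and 0.11. In the T11 comparison H2-Ab1 was not called with quantile normalization (-3.60), and Cd74 was called without PLK2null-1981 (-3.60). The cause of these changes was not tested. The alternatives without PLK2null-1981 and p53null-7435, and those without tumors in the T11 comparison, were chosen after seeing the data. At this depth all 7 genes lay above the floor of 3 reads in every tumor.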
